A study of Mus musculus with 12 samples.

Results

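The genes described here are 10 genes of prostaglandin and related lipid metabolism, out of 17995 genes with values, in cultured mouse testis cells. They were chosen by name, as Ptgs2 and its neighbours in the pathway, with the RPKM values and fold changes of these same 12 libraries already known, so their levels and differences are given as a description and carry no test. RNA was sequenced from 4 groups of 3 libraries each. C18-4 is a mouse spermatogonial stem cell line and TM4 a mouse Sertoli cell line, each a continuous culture rather than primary cells. Cells of each line received lentiviral shRNA, either shNC, a control sequence with no target named, or shM5, a set of 3 shRNAs against Chrm5, the gene of muscarinic acetylcholine receptor M5. No untreated cells were among these libraries, and C18-4 was grown in DMEM/F12 but TM4 in DMEM, so line and medium cannot be told apart. Nothing in the labels says that the 3 libraries of a group were separate cultures, so the errors measure the spread between these libraries, which may be technical.

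Prostaglandins are made in steps. A phospholipase such as cPLA2, the product of Pla2g4a, frees arachidonic acid from membranes, a cyclooxygenase (Ptgs1 or Ptgs2) turns it into the short-lived prostaglandin H, and a terminal synthase makes prostaglandin E (Ptges, Ptges2, Ptges3) or prostacyclin (Ptgis). Ptgs1 is generally expressed at a steady level, whereas Ptgs2 is an immediate-early gene whose mRNA is induced by growth factors, cytokines and calcium signals and is short-lived, and both enzymes are known from the testis. The products leave the cell and act on receptors such as EP4 (Ptger4), and Ptgr1 takes part in their reduction to inactive forms, while Pla2g7 encodes a secreted hydrolase of platelet-activating factor, another phospholipid mediator.

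The promoters of 4 members are shown: those of the cyclooxygenase paralogues Ptgs2 and Ptgs1, whose levels did not overlap between the TM4 groups, and those of Pla2g7 and Ptger4, the members whose levels did not overlap between the C18-4 groups. Each is the 250 bases before the annotated start, from RefSeq on GRCm38.p6, written 5′ to 3′ along the gene. Ptgs2 lies at chr1:150099781-150100030, plus strand, Ptgs1 at chr2:36230176-36230425, plus strand, Pla2g7 at chr17:43568201-43568450, plus strand, and Ptger4 at chr15:5244188-5244437, minus strand. Capitals mark matches on either strand to any of the 8 motifs searched.
Ptgs2: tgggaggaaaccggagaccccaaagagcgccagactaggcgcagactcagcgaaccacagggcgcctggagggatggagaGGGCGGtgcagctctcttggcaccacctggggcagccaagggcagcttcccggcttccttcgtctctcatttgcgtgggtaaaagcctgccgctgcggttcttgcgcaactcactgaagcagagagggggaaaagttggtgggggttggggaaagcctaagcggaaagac
Ptgs1: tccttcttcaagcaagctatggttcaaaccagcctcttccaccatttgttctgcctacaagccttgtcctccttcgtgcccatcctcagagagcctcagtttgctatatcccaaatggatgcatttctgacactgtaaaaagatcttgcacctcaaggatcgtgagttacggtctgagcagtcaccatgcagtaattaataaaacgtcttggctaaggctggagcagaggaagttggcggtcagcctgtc
Pla2g7: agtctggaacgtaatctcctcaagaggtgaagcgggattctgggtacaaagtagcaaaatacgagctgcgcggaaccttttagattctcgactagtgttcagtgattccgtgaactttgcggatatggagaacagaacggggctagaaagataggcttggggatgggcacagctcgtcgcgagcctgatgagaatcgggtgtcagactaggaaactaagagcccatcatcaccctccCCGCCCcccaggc
Ptger4: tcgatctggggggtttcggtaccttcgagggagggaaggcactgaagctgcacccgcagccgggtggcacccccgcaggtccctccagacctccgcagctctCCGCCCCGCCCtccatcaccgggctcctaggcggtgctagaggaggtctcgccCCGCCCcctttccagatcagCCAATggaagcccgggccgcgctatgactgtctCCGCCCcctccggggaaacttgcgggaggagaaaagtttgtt

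The motifs were the TATA box TATAAA, the cAMP response element TGACGTCA and its core TGACG, the E-box CACGTG, the AP-1 site TGANTCA, the C/EBP-ATF composite TGATGCAA, the CCAAT box and the GC box GGGCGG, and the core lies within the full response element. The Ptgs2 window held 1 GC box, and the Ptgs1 window matched none of the motifs. Sites after the annotated start, further upstream or with other letters were not searched. The lack of a cAMP response element or E-box match in the Ptgs2 window therefore does not show that its promoter lacks them. The Ptger4 window held 4 GC boxes, a pair of them overlapping by 1 base, and a CCAAT box, and the Pla2g7 window held 1 GC box. A GC box stood in 32.7% and a CCAAT box in 33.9% of 32851 mouse promoter windows of this length, so these matches are common. G and C made up 61.6% of the Ptgs2 window and 48.0% of the Ptgs1 window, against a median of 52.4%. Of the other members, Ptgr1 held a C/EBP-ATF composite, found in 0.791% of windows, with a CCAAT box and 2 GC boxes. Ptges2 held an E-box (6.02% of windows), Ptges 2 GC boxes and Ptges3 3. Of the alternative starts of Pla2g4a, 1 had the TATA box letters (12.4% of windows, either strand). They lay on the opposite strand, 200 to 195 bases before the start. In all, 9 of the 10 members had an entry, and Ptgis did not. A match is a run of letters, not an occupied site.

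Some libraries stood apart from their group, which touches every comparison of shM5 with shNC. Over all genes tested, TM4 shNC replicate 3 differed from the other TM4 shNC libraries by 0.640 and 0.642 (root mean square of log2 RPKM) but from the TM4 shM5 libraries by 0.202 to 0.257, and in C18-4 cells replicate 3 of both groups stood apart from replicates 1 and 2 (shNC replicate 3 by 0.438 and 0.418, where replicates 1 and 2 differed by 0.200). The summed RPKM of Ddit3, Trib3, Chac1, Asns, Atf4 and Sesn2, genes of the amino acid and endoplasmic reticulum stress response that were listed because they were known to differ between these TM4 libraries, was 1371 and 1359 in TM4 shNC replicates 1 and 2, 563 in replicate 3 and 506.1 to 526.1 in the shM5 libraries. Chrm5 was listed at 0.01 RPKM or less in every library, so its level could not check the knockdown. Of the defining Sertoli markers, TM4 libraries had Sox9 at 1.11 to 1.74 RPKM but Wt1 at no more than 0.15, Amh at no more than 0.19 and Cldn11 at no more than 0.03. C18-4 libraries had Uchl1 at 76.8 to 140.02 and Id4 at 1.64 to 4.71 RPKM, but Gfra1 at no more than 0.34, Ddx4 at no more than 0.05, and Wt1 at 53.9 to 72.3. The names of the lines are therefore used as labels.

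Ptgs2, the inducible cyclooxygenase, showed the widest range of the 10 genes. In TM4 shNC cells its level was 247.7, 259.8 and 188.5 RPKM in replicates 1 to 3. In TM4 shM5 cells it was 127.9, 123.5 and 141.2 RPKM. The groups did not overlap: every shM5 library lay below every shNC library, and shNC replicate 3 lay between the others. The mean was 232 ± 38.2 (SD, n = 3) in shNC and 131 ± 9.23 RPKM in shM5 cells, 43.6% lower. On the log2(RPKM + 0.1) scale the difference was -0.81 ± 0.13 (SE), and without shNC replicate 3 it was -0.96 ± 0.06. Against shNC replicate 3 alone the shM5 mean was 0.694 times as high, so the direction did not rest on the other shNC libraries.

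In C18-4 cells Ptgs2 was low. Its level was 1.37, 1.3 and 1.94 RPKM in shNC and 1.03, 1.05 and 1.87 RPKM in shM5 cells. The groups overlapped, since replicate 3 was the highest library in both. Within each replicate number the shM5 library was lower, by 0.34, 0.25 and 0.07 RPKM. The difference was -0.24 ± 0.28 on the log2 scale. In bulk RNA, fewer cells with a transcript and less of it per cell cannot be told apart.

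The lines differed far more than the shRNA groups. Ptgs2 was at 123.5 to 259.8 RPKM in the 6 TM4 libraries and at 1.03 to 1.94 RPKM in the 6 C18-4 libraries. Its log2(RPKM + 0.1) was 6.87 ± 0.15 lower in C18-4, a 117-fold difference (142-fold among shNC libraries, 95.6-fold among shM5 libraries), and this ranked 119th by size among 11773 genes. Ordered by RPKM within each library, Ptgs2 took places 299 to 419 of 17995 in TM4 shNC, 583 to 662 in TM4 shM5 and 10507 to 10910 in C18-4 libraries. It was thus among the abundant mRNAs of TM4 cells in either group and of low abundance in C18-4.

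Ptgs1, the constitutive cyclooxygenase, was at 129.1, 128.0 and 97.9 RPKM in TM4 shNC and at 93.5, 97.2 and 88.1 RPKM in TM4 shM5 cells. These groups did not overlap, but only by the gap between 97.9 in shNC replicate 3 and 97.2 in shM5 replicate 2. The mean was 118 ± 17.7 in shNC and 92.9 ± 4.54 RPKM in shM5 cells, a log2 difference of -0.34 ± 0.12, or -0.47 ± 0.05 without shNC replicate 3. In C18-4 cells it was 19.1, 18.7 and 29.1 RPKM with shNC and 19.3, 19.3 and 21.6 RPKM with shM5, which overlapped. Without replicate 3 of both C18-4 groups the log2 difference changed sign, from -0.13 ± 0.17 to 0.03 ± 0.05. Between the lines Ptgs1 was 2.32 ± 0.11 lower in C18-4 on the log2 scale.

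The balance of the cyclooxygenase transcripts differed by line and, in TM4, by shRNA. RPKM is per length, so the 2 genes can be compared within a library. The Ptgs2 to Ptgs1 ratio of RPKM was 1.92, 2.03 and 1.92 in TM4 shNC, replicate 3 included, and 1.37, 1.27 and 1.60 in TM4 shM5 libraries. The groups did not overlap, and shNC replicate 3, which resembled shM5 libraries over all genes, lay with its own group by this ratio. Ptgs2 made up 65.7% to 67.0% of the summed cyclooxygenase RPKM in TM4 shNC libraries. Its share was 56.0% to 61.6% in TM4 shM5 and 5.07% to 7.98% in the C18-4 libraries. The summed cyclooxygenase RPKM was 286 to 388 in TM4 shNC, 221 to 229 in TM4 shM5 and 20.0 to 31.1 in C18-4 libraries.

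Pla2g4a, which releases arachidonic acid, differed by line and little by shRNA. It was at 52.4, 53.5 and 54.1 RPKM in TM4 shNC, at 58.1, 57.6 and 51.3 RPKM in TM4 shM5, at 11.3, 11.0 and 13.1 RPKM in C18-4 shNC and at 11.9, 12.5 and 11.5 RPKM in C18-4 shM5 libraries. The shRNA groups overlapped in both lines, and every C18-4 library was below every TM4 library, by 2.19 ± 0.06 on the log2 scale.

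Pla2g7, the platelet-activating factor hydrolase, was the member that was higher with shM5 in every library of both lines. In C18-4 cells it was 2.74, 2.53 and 2.94 RPKM with shNC and 4.78, 5.07 and 5.41 RPKM with shM5. In TM4 cells it was 2.41, 2.13 and 2.45 RPKM with shNC and 3.90, 3.44 and 3.49 RPKM with shM5. The groups did not overlap in either line, and TM4 shNC replicate 3 stayed with its own group. The log2 differences were 0.87 ± 0.12 in C18-4 and 0.61 ± 0.12 in TM4 cells, and 0.65 ± 0.11 in TM4 without shNC replicate 3. Between the lines it was 0.35 ± 0.08 higher in C18-4 on the log2 scale, but the difference was -0.0572 when the libraries were quantile normalised, so no direction is given for it. An antisense gene overlaps Pla2g7 in the GENCODE annotation, and nothing says that the libraries kept the strand, so reads of the pair cannot be told apart.

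**Figure D1:**
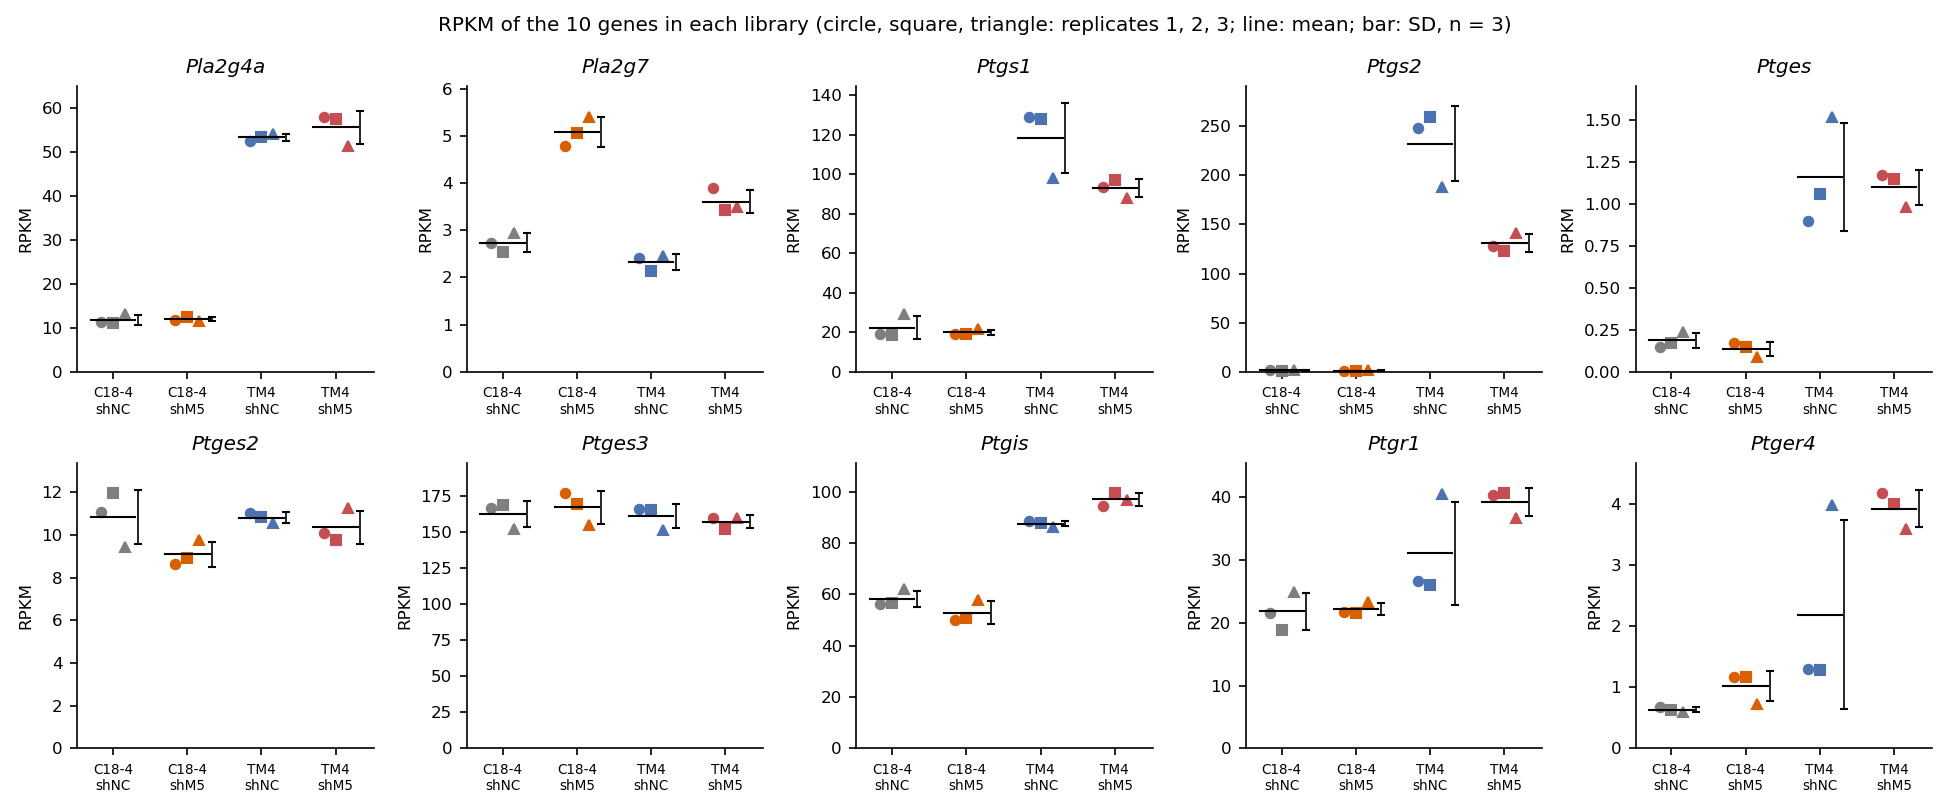
RPKM (vertical axes, each from 0) of the 10 genes in each of the 12 libraries, by group; circles, squares and triangles are replicates 1, 2 and 3, lines are means and bars SD (n = 3). Ptgs2 sits between 123.5 and 259.8 RPKM in TM4 and under 2 RPKM in C18-4, and TM4 shNC replicate 3 (triangle) lies among the shM5 libraries for Ptgr1 and Ptger4 but not for Ptgs2 or Pla2g7.

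Of the prostaglandin E synthases, Ptges2 and Ptges3 differed little between the groups, and Ptges differed by line. Ptges3, which encodes p23, a co-chaperone of Hsp90 with prostaglandin E synthase activity, was at 151.2 to 176.7 RPKM in all 12 libraries and was the most abundant member in C18-4 cells. Ptges2, the membrane-associated form, was at 8.63 to 11.97 RPKM. In C18-4 cells Ptges2 was at 11.1, 11.97 and 9.46 RPKM with shNC and 8.63, 8.92 and 9.76 RPKM with shM5, lower in replicates 1 and 2 and higher in replicate 3, so the groups overlapped (log2 difference -0.24 ± 0.11). Ptges, the inducible microsomal form that is often induced along with Ptgs2, was low everywhere: 0.90, 1.06 and 1.52 RPKM in TM4 shNC, 1.17, 1.15 and 0.98 RPKM in TM4 shM5 and 0.09 to 0.24 RPKM in the C18-4 libraries. It was the 1 member below the expression limit in C18-4 cells (a mean of at least 0.5 RPKM), and it was 2.24 ± 0.16 lower there than in TM4 on the log2 scale. Its C18-4 values are close to the 0.1 RPKM added before the logarithm, so the size of that difference is uncertain. Over the alternatives run it went from -3.28 to -0.87. Ptges3 has a pseudogene copy and the related gene Ptges3l, and how reads were divided among them is not given in the sources used here.

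Ptgis, prostacyclin synthase, was far above Ptges in both lines. It was at 88.6, 87.7 and 86.4 RPKM in TM4 shNC and at 94.5, 99.4 and 96.8 RPKM in TM4 shM5 libraries, with no overlap. In C18-4 cells it was 56.2, 56.8 and 61.9 RPKM with shNC and 49.8, 50.9 and 57.9 RPKM with shM5. These groups overlapped, but each shM5 library lay below the shNC library of its own number, by 6.44, 5.91 and 3.99 RPKM. The log2 difference was thus 0.15 ± 0.06 in TM4 and -0.14 ± 0.08 in C18-4 cells. The ratio of Ptgis to Ptges RPKM was 56.8 to 98.8 in TM4 libraries, and the C18-4 ratio rests on Ptges values too low to be read closely. GENCODE lists genes on the opposite strand that overlap Ptgis.

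Ptger4, the EP4 receptor of prostaglandin E, and Ptgr1, prostaglandin reductase, followed TM4 shNC replicate 3. Ptger4 was at 1.3, 1.28 and 3.97 RPKM in TM4 shNC and 4.17, 3.99 and 3.58 RPKM in TM4 shM5 libraries. Ptgr1 was at 26.7, 26.0 and 40.6 RPKM in TM4 shNC and 40.4, 40.7 and 36.7 RPKM in TM4 shM5 libraries. For both genes shNC replicate 3 lay within the shM5 group, so the groups overlapped. The log2 differences were 1.01 ± 0.42 for Ptger4 and 0.36 ± 0.18 for Ptgr1, against 1.53 ± 0.12 and 0.57 ± 0.06 without that library. In C18-4 cells Ptger4 was at 0.67, 0.63 and 0.59 RPKM with shNC and 1.16, 1.17 and 0.73 RPKM with shM5, which did not overlap (log2 difference 0.59 ± 0.24). Ptgr1 was at 21.6, 18.9 and 24.9 RPKM with shNC and 21.7, 21.6 and 23.3 RPKM with shM5 in that line, which overlapped. Between the lines Ptger4 was 1.66 ± 0.25 and Ptgr1 0.65 ± 0.11 lower in C18-4 on the log2 scale. Ptger4 overlaps Ttc33, a gene on the opposite strand, and reads of the pair cannot be told apart without strand. Ttc33 was at 11.0 to 17.7 RPKM over all libraries, and its shRNA groups overlapped in both lines.

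**Figure D2:**
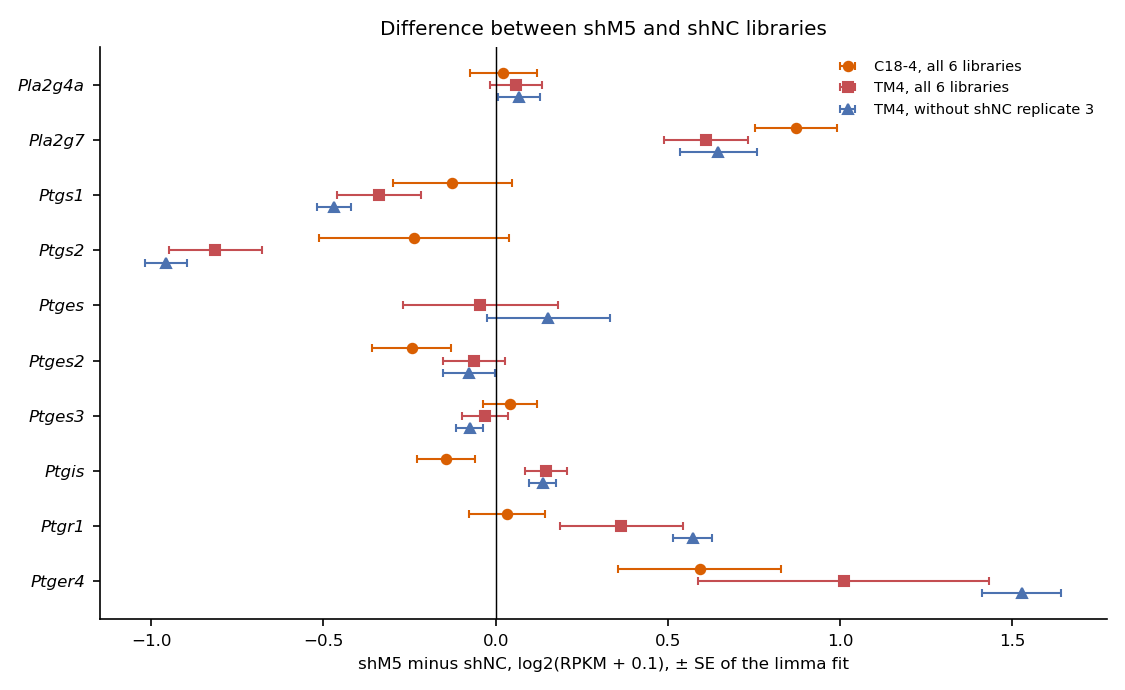
Difference of shM5 minus shNC on the log2(RPKM + 0.1) scale (horizontal axis) for each gene, with the SE of the fit, in C18-4 cells, in TM4 cells, and in TM4 cells without shNC replicate 3; Ptges was below the expression limit in C18-4. Leaving out that library moves Ptger4 from 1.01 to 1.53 and Ptgr1 from 0.36 to 0.57, and Ptgs2 from -0.81 to -0.96, while Pla2g7 goes from 0.61 to 0.65.

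The plot of these genes against the stress genes shows the same division. Across the TM4 libraries, Ptger4 and Ptgr1 were low in the 2 libraries with a summed stress-gene level above 1300 RPKM and high in the 4 libraries below 600 RPKM, whichever shRNA they had received. Pla2g7 was low in all 3 shNC libraries whatever the stress-gene level, and Ptgs2 was highest in the same pair of libraries as the stress genes but higher in shNC replicate 3 than in any shM5 library. In C18-4 cells the stress-gene level was 1095 and 1051 RPKM in replicate 3 of shNC and shM5 and 659 to 685 RPKM in the other libraries, and Ptgs2 was highest in those replicates too. The part of these genes in the differences was not tested.

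**Figure D3:**
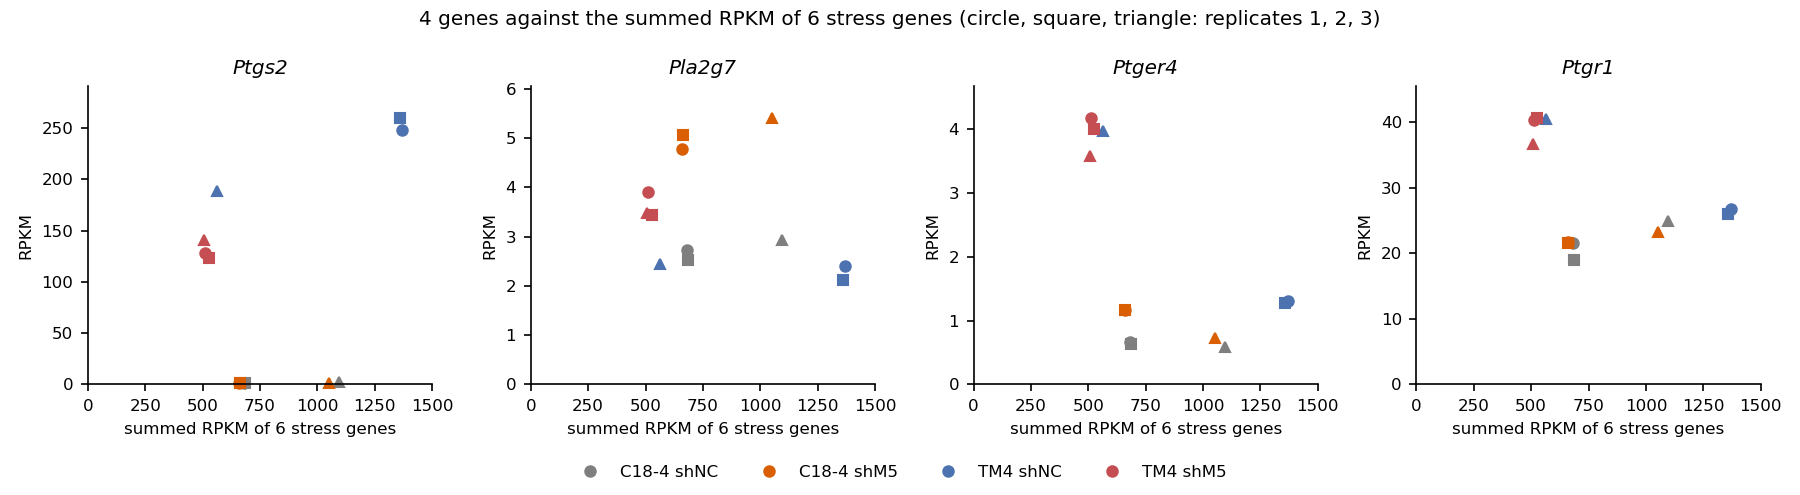
RPKM of Ptgs2, Pla2g7, Ptger4 and Ptgr1 (vertical axes, from 0) against the summed RPKM of 6 stress genes (horizontal axis) in the 12 libraries, by group; circles, squares and triangles are replicates 1, 2 and 3. TM4 shNC replicate 3, at 563 on the horizontal axis, lies with the TM4 shM5 libraries for Ptger4 and Ptgr1 and apart from them for Ptgs2 and Pla2g7.

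A fit across all genes with limma, called at a Benjamini-Hochberg adjusted p below 0.05, puts these values against the background. In C18-4 cells 1 of the 9 members tested, Pla2g7, was called, where 68 of 11611 genes (0.586%) were called in all. A replicate block was used since same-numbered C18-4 libraries deviated together, mainly replicate 3 against replicates 1 and 2. Pairing by number was not shown. With the block Pla2g7 was again the 1 member called, out of 1386 genes (11.9%). Without replicate 3 of both groups 4 members were called (Pla2g7, Ptger4, Ptges2 and Ptgis), where 26.2% of genes were. In TM4 cells none of the 10 members was called and no gene was (0% of 11016), although 2866 genes had an unadjusted p below 0.05. Without shNC replicate 3 the count was 6 of 10 members (Ptgs2, Ptgs1, Pla2g7, Ptgis, Ptgr1 and Ptger4), where 67.4% of genes were called. Groups did not overlap for 2 members in C18-4 (18.9% of all genes) and for 4 in TM4 (26.8% of all genes). Since the members were known from these values, nothing is read from their counts.

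The difference of the shM5 effect between the lines was not called for any member, and it was for 12 of 11773 genes (0.102%). For Ptgs2 it was 0.58 ± 0.31 on the log2 scale, given as a description. Without TM4 shNC replicate 3, 3 members were called (Ptgis, Ptgr1 and Ptger4), where 38% of genes were, and Ptgs2 was not.

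Between the lines 8 of 10 members were called, where 73% of genes were. Of these, 7 were lower in C18-4 (29.2% of genes), and the other was Pla2g7, whose direction turned with the scaling. The same 7 genes, Pla2g4a, Ptgs1, Ptgs2, Ptges, Ptgis, Ptgr1 and Ptger4, had all 6 C18-4 libraries below all 6 TM4 libraries, as did 19.9% of genes. Ptges2 and Ptges3 were not called, with log2 differences of -0.10 ± 0.07 and 0.05 ± 0.05. Among shNC libraries alone 6 members were called, where 55.2% of genes were, and Pla2g7 and Ptgr1 were not called either.

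The pathway around the members was followed with 9 lists of other genes, 107 of which had values. Tests here are on genes that are not members, but the lists too were chosen with earlier results of these data known. The adjusted p-values do not account for that choice. In C18-4 cells none of the 75 tested was called without the block. With it 17 were, 6 higher and 11 lower with shM5, a share of 22.7% beside 11.9% of all genes. The block was taken up after the deviations of these libraries were seen, and libraries of the same number were not shown to be pairs. The C18-4 p-values that follow hold only if that pairing is right. The lower ones included Fosl1 and Cebpd, transcription factors that act on the Ptgs2 promoter (-0.86 ± 0.15 and -0.58 ± 0.07, limma adjusted p = 0.0116 and 0.00368), and Ptgfrn, a membrane partner of the prostaglandin F receptor (-0.52 ± 0.09, limma adjusted p = 0.0122). The higher ones included Atf3, a stress-induced factor (0.48 ± 0.07, limma adjusted p = 0.00557), Celf2, an RNA-binding protein of the Ptgs2 mRNA (0.38 ± 0.10, limma adjusted p = 0.0476), and Anxa1, annexin A1, known as an inhibitor of phospholipase (0.32 ± 0.04, limma adjusted p = 0.00367). Of the 22 regulators of Ptgs2 on the list, 7 were lower and 3 higher in that fit, and none was called without the block. Of all 11611 genes, 781 were lower and 605 higher with the block. Ptgs2 itself was not called, and a link between these genes and Ptgs2 was not tested.

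In TM4 cells none of the 71 list genes tested was called with all libraries, and 51 were without shNC replicate 3, 33 higher and 18 lower with shM5, a share of 71.8% beside 67.4% of all genes. All 8 genes listed with Ptges3, which are Hsp90, its co-chaperones and the related gene Ptges3l, were called higher in that fit. Of all 11026 genes, 4026 were called higher. The median log2 difference of the 8 was 0.34, and Ptges3 was not called. Hsp90ab1 was at 1268, 1264 and 1916 RPKM in TM4 shNC libraries and 1883 to 1955 RPKM in shM5, so shNC replicate 3 lay within the shM5 group. Alox5ap, which serves leukotriene synthesis (1.80 ± 0.29), Ptgfrn (1.28 ± 0.06) and Anxa1 (0.97 ± 0.04) differed most upward in that fit. Atf3 (-3.77 ± 0.08), Pla2g5 (-1.03 ± 0.26) and Cebpb (-0.80 ± 0.09) differed most downward, and the limma adjusted p was at most 0.0082 for all 6. With all 6 libraries the smallest limma adjusted p of any gene was 0.192, so these calls were made only in fits without that library. The shNC libraries left in that fit were the 2 with stress-gene levels above 1300 RPKM. In it, shRNA and the state of the libraries cannot be told apart. In shNC replicates 1 to 3 Ptgfrn was at 18.7, 19.3 and 41.1 RPKM, against 43.0 to 48.8 RPKM in shM5. Anxa1 was at 214.8, 224.1 and 405.3 RPKM, against 414.9 to 439.5 RPKM. All 8 genes listed with Ptges3 were also higher under both other scalings of that fit.

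Between the lines 53 of 75 list genes were called, 23 higher and 30 lower in C18-4, a share of 70.7% beside 73% of all genes. Of the 22 regulators of Ptgs2 transcription and mRNA stability, 15 were lower in C18-4 and 3 were higher, where 29.2% of all genes were lower. With quantile normalisation 18 were lower and 2 higher, where 37.7% of all genes were lower. The list holds activators of transcription as well as proteins that destabilise mRNA. Named after their values were seen, Zfp36l1 and Zfp36l2, which promote mRNA decay, were lower in C18-4 (-1.88 ± 0.06 and -1.81 ± 0.08, limma adjusted p = 3.09e-11 and 1.90e-09), and Rela, an NF-kB subunit, was higher (0.95 ± 0.08, limma adjusted p = 7.01e-07). The median log2 difference of that list was -0.41, where it was 0.14 over all genes tested. Fosl1, an AP-1 subunit, was at 83.7 to 139.4 RPKM in TM4 and 3.11 to 12.4 RPKM in C18-4 libraries (log2 difference -4.10 ± 0.26, limma adjusted p = 4.34e-08). Junb, the most abundant of the list, was 1.26 ± 0.09 lower (limma adjusted p = 6.96e-08).

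Other enzymes of the pathway differed in either direction between the lines. Pla2g5, a secreted phospholipase, was at 23.0 to 25.4 RPKM in C18-4 and 0.55 to 1.86 RPKM in TM4 libraries (4.42 ± 0.20, limma adjusted p = 1.93e-09), opposite to Pla2g4a. Pla2g16, an acyltransferase with phospholipase activity, was 5.18 ± 0.25 lower in C18-4 on the log2 scale (limma adjusted p = 2.71e-09). Lpcat2, which makes platelet-activating factor, was at 18.4 to 22.4 RPKM in C18-4 and at most 0.40 RPKM in TM4 libraries (5.98 ± 0.24, limma adjusted p = 5.28e-10). Mgst2, which can form leukotriene C, was 4.70 ± 0.23 lower in C18-4 (limma adjusted p = 3.18e-09). Cbr3, a carbonyl reductase, was at 12.6 to 22.8 RPKM in C18-4 and listed at 0 in all 6 TM4 libraries. Akr1b3, an aldose reductase with prostaglandin F synthase activity and the most abundant terminal synthase listed, was 1.15 ± 0.07 lower in C18-4 (limma adjusted p = 3.36e-08), and Ptgfrn 2.26 ± 0.17 and Akr1b8 0.71 ± 0.12 lower (limma adjusted p = 1.89e-07 and 0.000183). The most abundant genes of the remaining lists, S100a10, Lta4h, Pafah1b2, Fads1 and Hsp90ab1, were not called, with log2 differences from -0.12 to 0.25.

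**Figure D4:**
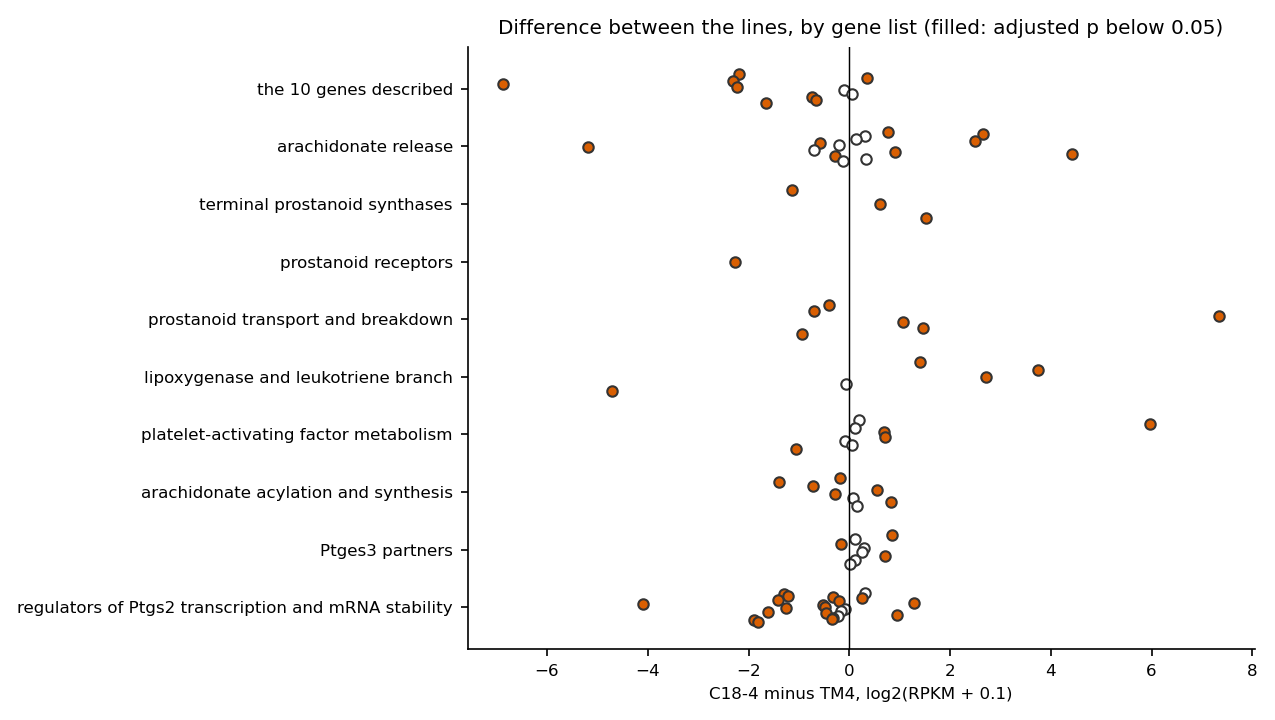
Difference of C18-4 minus TM4 on the log2(RPKM + 0.1) scale (horizontal axis) for the 10 genes and for the tested genes of 9 lists; each point is a gene, filled where the adjusted p is below 0.05 (for the 10 genes a description). Ptgs2, at -6.87, is the lowest point, and most regulators of Ptgs2 lie left of 0.

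Ptger4 had the highest level of the prostanoid receptors in TM4 cells, at 1.28 to 4.17 RPKM, and it overlapped Ptger1 in C18-4 shNC libraries (0.28 to 0.70 RPKM) but lay above it in C18-4 shM5 libraries (0.46 to 0.59 RPKM). The 7 others with values, looked at after their levels were seen, were at 0.70 RPKM or less in every library, the highest being Ptger1 in C18-4 shNC replicate 2. Of these, Tbxa2r was at 0.20 to 0.36 RPKM in C18-4 shNC and 0.54 to 0.67 RPKM in C18-4 shM5 libraries. Hpgd, the dehydrogenase that inactivates prostaglandins, was at 0.04 RPKM or less in every library, and Hpgds, a prostaglandin D synthase, and Tbxas1, thromboxane synthase, at 0.04 and 0.09 RPKM or less. Ptgds, the other prostaglandin D synthase, was listed at 0 in all 6 TM4 libraries and was at 0, 0.75 and 1.10 RPKM in C18-4 shNC and 0.27, 0.09 and 0.18 RPKM in C18-4 shM5 libraries.

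The genes most like Ptgs2 in their pattern were found by the root mean square difference of log2(RPKM + 0.1), centred per gene, over the 12 libraries and 11156 genes. Those reported here were Tmem266 (0.23), Mfsd2a (0.24), Ptpn22 (0.27) and Tfpi (0.33), where the root mean square of the centred Ptgs2 itself was 3.46. These 4 were at 0.45 RPKM or less in every C18-4 library, so the likeness is mostly that of the lines. Tmem266, for example, was at 25.2, 23.5 and 13.2 RPKM in TM4 shNC and at 14.3, 15.0 and 11.98 RPKM in TM4 shM5 libraries, and shNC replicate 3 lay within the shM5 group, unlike for Ptgs2. Within the 6 TM4 libraries the nearest were Rex2 (0.07), Taf1a (0.07), Zup1 (0.08), Zfp991 (0.08) and Zfp600 (0.08). Within the 6 C18-4 libraries they were Nr1d2, Nlrx1, Inpp5k, Rad51d and Tmem243. None of the genes named was among the nearest in more than 1 of these orders.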

How the data were processed

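RNA-seq of 12 libraries of C18-4 and TM4 cells was used, grouped by the labels. The authors enriched mRNA with oligo(dT), mapped Illumina reads to reference genes with SOAPaligner and deposited RPKM, reads scaled to gene length and to the mapped reads of the library, with 2 decimals; build and strand are not given in the sources used here. RPKM holds no read numbers, so the depth of a value is unknown. Low values step by the worth of 1 read, estimated at a relative 0.981 to 1.03 between libraries. Only values close to the lowest of each gene entered that estimate. A library with larger steps would have been left out, so it does not show that depth was alike. No column was left unused.

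log2(RPKM + 0.1) was fitted with limma 3.58.1 in R 4.3.3 (eBayes with trend) keeping genes whose mean in the fitted libraries reached 0.5 RPKM, each line alone for shM5 against shNC, and all 12 libraries for the lines and the interaction. Adjustment was by Benjamini-Hochberg over all genes tested. A fold on this scale understates the change of low genes. The fit was tested on simulated data with independent noise per gene. Those data held no library that stood apart over all genes, as some did here, so that case was not covered. Promoters were read with Python 3.11.15.

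Members and lists were chosen with earlier results of these data known. Of the lists, the text names, for each fit, the 3 called genes with the largest difference in each direction and a mean of at least 1 RPKM, and the most abundant gene of each list, and further genes where stated or as marker or stress genes. Deviations from the group mean of same-numbered libraries correlated at 0.439, 0.409 and 0.631 in C18-4, where the replicate block was therefore used. In TM4 they correlated at 0.0729, 0.0489 and 0.127, and the block was only an alternative. In C18-4, replicates 1 and 2 of unlike number correlated at 0.341 and 0.345, and replicate 3 with either at -0.514 to -0.467. Replicate 3 thus stood apart, and pairing by number was not shown. Alternatives were the pseudocount, filter, scaling, variance model, threshold, replicate block and libraries left out. A gene among those most like Ptgs2 is not reported here.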

Additional observations from a re-analysis of the deposited data

Results flagged for a closer look

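Ptgis was the only member of the 10 for which the shM5 library lay below the shNC library of the same number in all 3 C18-4 pairs (by 6.44, 5.91 and 3.99 RPKM) and above it in all 3 TM4 pairs (by 5.93, 11.7 and 10.5 RPKM). How many of all genes had such opposite signs was not counted, and the pattern was seen in the members' own values. The difference of the shM5 effect between the lines was -0.29 ± 0.10 on the log2(RPKM + 0.1) scale (C18-4 minus TM4). It was not past the threshold over all 12 libraries. Without TM4 shNC replicate 3 it was (-0.28 ± 0.10), in a fit where 38% of all genes were called. Libraries of the same number were not shown to be pairs in either line.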

How the results depend on the processing

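The authors' threshold (adjusted p of at most 0.001 and a log2 difference of at least 1) was applied to the limma fits. The authors used it with DEGseq, another test, so the counts cannot be set against theirs. With it the genes called numbered 0 in C18-4, 0 for the difference between the lines' effects and 3101 between the lines. In C18-4 cells, where 68 were called, the count was 4 with no filter, 30 with equal totals (19 of them higher, against 34 of 68), 45 with no trend, 1386 with the replicate block, 3029 without replicate 3 of both groups, and 0 to 237 with 1 library left out: 237 without shNC replicate 3, 31 without shM5 replicate 3 and 0 without any of the others, where 770 to 998 had an unadjusted p below 0.05. In TM4 the count was 8016 without replicate 3 of both groups and 0 to 7433 with 1 library left out, 7433 coming without shNC replicate 3; with the replicate block it stayed at 0 (2568 unadjusted). The interaction, with 12, had 27 with log2(RPKM + 1), 21 with no filter, 5 with equal totals (1 higher, against 4 of 12), 57 with quantile normalisation, 22 with no trend, 2 with the replicate block, 7022 without replicate 3, and 0 to 4477 with 1 library left out, 4477 without TM4 shNC replicate 3 and 31 without C18-4 shNC replicate 3. Quantile normalisation moved the median difference of all genes between the lines from 0.136 to -0.0190, and 4209 of 8648 calls were then higher in C18-4 instead of 5163 of 8596; Pla2g7 reversed to -0.0572. Of the called list genes named between the lines, Akr1b8 missed the threshold with the replicate block (-0.50) and among shNC libraries alone (-0.42). The causes were not tested.

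The Ptgs2 difference kept its sign in all alternatives run, from -1.01 to -0.73 in TM4, from -0.50 to -0.07 in C18-4 and from -7.36 to -6.18 between the lines. Pla2g7 stayed higher with shM5, at 0.47 to 0.67 in TM4 and 0.70 to 0.92 in C18-4. RPKM gives no read numbers, so counting error at levels such as those of Ptges and Ptger4 in C18-4 is unknown.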
